A study of Mus musculus with 16 samples.

Results

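The epidermal differentiation complex is a cluster of genes on mouse chromosome 3 whose products build the cornified envelope of the skin surface. Its members were taken as the protein-coding genes of chromosome 3 whose symbols begin with Lce, Sprr or S100a, together with Lor, Flg, Flg2, Ivl, Rptn, Crnn, Tchh, Tchhl1, Hrnr and Crct1, which gave 57 of the 22367 protein-coding genes of the mm9 genome. They are 13 S100a genes, 16 Sprr genes, 18 Lce genes, 7 fused-type S100 genes (Flg, Flg2, Rptn, Crnn, Tchh, Tchhl1, Hrnr) and the 3 single genes Lor, Ivl and Crct1, with Sprr2j-ps, named a pseudogene but annotated as protein-coding, among the Sprr genes. They lie between S100a1 and S100a10 at chr3:90314956-93368565, a span of 3.05 Mb.

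As a keratinocyte leaves the basal layer it switches on these genes in sequence, and their products are crosslinked beneath the plasma membrane into an insoluble shell. Involucrin (Ivl), loricrin (Lor), the small proline-rich proteins (Sprr) and the late cornified envelope proteins (Lce) are building blocks of that shell, and filaggrin (Flg) and its fused-type relatives bind keratin filaments. The S100a genes at the ends of the cluster encode small calcium-binding proteins, many of which are made in other cell types too.

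Chromatin immunoprecipitation followed by sequencing had been used on cells sorted from the skin of wild-type CD1 x FVB mice labelled male, to ask how trimethylation of histone H3 on lysine 4, 27 or 9 (H3K4me3, H3K27me3, H3K9me3) differs between dividing and quiescent hair follicle stem cells (HFSCs). EA-HFSCs are CD34+/α6-integrin+ bulge cells in early anagen (PD22 to 25, postnatal days), and LC-HFSCs are the same sort in late catagen (PD38 to 44). Non-EA-HFSCs and non-LC-HFSCs are the CD34-/α6-integrin+ cells of the same ages, a mixture of epidermis and lower outer root sheath. For each population nuclei from 15 to 20 pooled mice were cut with micrococcal nuclease. H3K4me3 is the mark of active or poised gene starts, H3K27me3 that of Polycomb repression and H3K9me3 that of heterochromatin. The α6-integrin gate takes cells attached to the basement membrane, while most of the envelope genes are known to be switched on above it.

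There was 1 peak list for each of 4 populations and 3 marks, made by the authors from reads pooled over independent experiments, so that differences between populations cannot be checked against replicates and were not tested. A start was called marked when at least 1 bp of a peak lay within 3000 bp to either side of it. The score of a peak is 10 times the negative log10 of its p-value, and it describes or ranks peaks within a list only, because it grows with the number of reads, which is not in the lists. The methods of the study state that LC-HFSCs were sequenced more deeply than EA-HFSCs, and the LC-HFSC list was the shorter one for each mark. The methods also state that peak calling came near saturation for H3K4me3, but that reads were too few for this with H3K27me3 and H3K9me3. A start without a peak of H3K27me3 or H3K9me3 is therefore not shown to lack the mark. The median score was 612 in EA-HFSCs, 226 in LC-HFSCs, 462 in non-EA-HFSCs and 713 in non-LC-HFSCs for H3K4me3. Many peaks share the score 3100 exactly (590, 0, 2701 and 874 in that order), so that the highest peaks of a list cannot be ordered among themselves, and tied peaks were all given the best rank of the tie. As a check of the sort, Cd34 had H3K4me3 in both HFSC lists and in neither non-HFSC list, whereas Itga6, the α6-integrin gene, had none in any list. Only the outermost annotated start of each gene was used, so a peak at another start of Itga6 would be missed. Of the 8 bulge and follicle markers, which include Cd34 and Itga6, 7 had H3K4me3 in each HFSC list, 6 in non-EA-HFSCs and 5 in non-LC-HFSCs. Krt15, Lgr5, Nfatc1, Sox9 and Tcf7l1 had it in all 4 lists and so did not separate the populations. Of 5 leukocyte markers (Ptprc, Cd3e, Cd52, Cd207, Lyz2) none had H3K4me3 in any list. H3K4me3 stood at 1 or 2 of 5 melanocyte markers (Mitf and Dct), at 1 of 3 endothelial markers (Kdr) and at 2 or 3 of 4 fibroblast markers, among them Col1a1 and Pdgfra, in each list. Some of these starts had H3K27me3 too, Kdr in all 4 lists, Pdgfra in all but LC-HFSCs and Col1a1 in both non-HFSC lists.

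Most of the complex had no called peak of the 3 marks at its gene starts. No peak of any of the 12 lists lay at the start of 38 of the 57 members, where 29.0% of all protein-coding genes had none. These unmarked genes were 15 of the 16 Sprr genes, 14 of the 18 Lce genes, 6 of the 7 fused-type genes, Ivl, S100a7a, a relative of human psoriasin, and S100a8 (calgranulin A), both known from inflamed skin. Filaggrin, hornerin, repetin, cornulin and involucrin thus had no peak at the start in HFSCs or in the CD34- cells at either age. H3K4me3 in at least 1 list was found at 13 members, and 10 of these were S100a genes. The others were Lor, Crct1 and Tchh, and none of the 16 Sprr or 18 Lce genes had it.

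**Figure D1:**
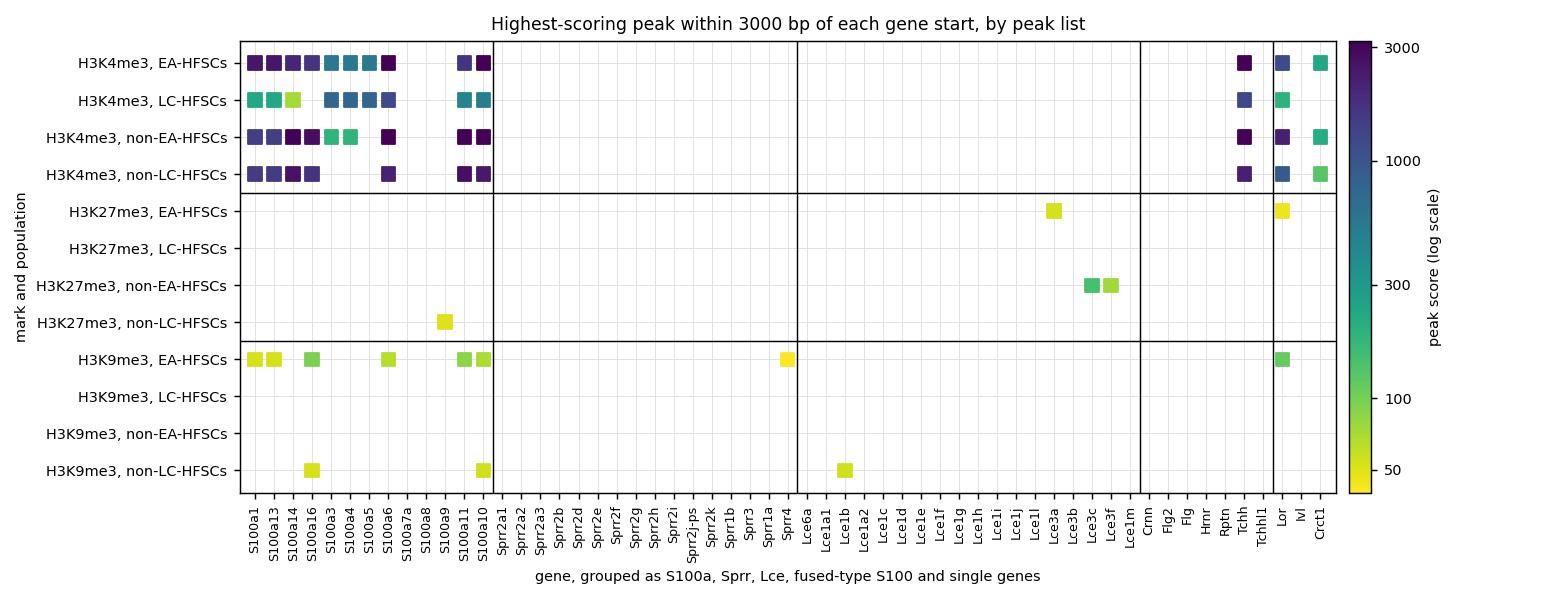
Score of the highest-scoring peak within 3000 bp of the start of each of the 57 genes (columns, by family and then by position) in the 12 peak lists (rows), with colour on a log scale. In the H3K4me3 rows, from the top down, 10, 9, 9 and 7 of the 13 S100a genes have a square. The Sprr block holds a single H3K9me3 square, and the only genes with H3K4me3 outside the S100a block are Tchh, Lor and Crct1.

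H3K4me3 was present at 13 members in EA-HFSCs (22.8%, 95% Wilson interval 13.8 to 35.2%), beside 60.4% of all protein-coding genes. In LC-HFSCs there were 11 (19.3%, 11.1 to 31.3%) beside 53.9%. In non-EA-HFSCs there were 12 (21.1%, 12.5 to 33.3%) beside 59.6%, and in non-LC-HFSCs 10 (17.5%, 9.82 to 29.4%) beside 56.6%. The members lay below the share of all genes in each population. The intervals cover counting error only and treat the members as independent, which they are not. The 13 members in EA-HFSCs lay at 10 distinct peaks and the 11 in LC-HFSCs at 8, so the intervals give no test of the difference. H3K4me3 in all 4 lists was found at 8 members (Lor, S100a1, S100a6, S100a10, S100a11, S100a13, S100a14 and Tchh), where 52.9% of all genes had it.

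Base composition moved with this difference. The ratio of observed to expected CpG within 500 bp of the start had a median of 0.118 over the members and of 0.549 over all genes, and it was under 0.4 at 53 members and at 8965 genes in all. Among these CpG-poor starts the share with H3K4me3 over all members was close to that over the genome. H3K4me3 was at 17.0% of the 53 members and 16.4% of the 8965 genes in EA-HFSCs, at 13.2% and 12.1% in LC-HFSCs, at 15.1% and 16.9% in non-EA-HFSCs, and at 11.3% and 14.3% in non-LC-HFSCs. No peak of any list lay at 71.7% of these members and at 65.5% of these genes. The 4 members above 0.4 were S100a6, S100a10, S100a11 and S100a13, and each had H3K4me3 in all 4 lists. The members without H3K4me3 had ratios between 0.0190 (Ivl) and 0.219, with a median of 0.110, and those with it between 0.0951 (Lor) and 0.542 (S100a11), with a median of 0.195. The share of marked members over all families was thus close to that of CpG-poor genes in general, but the families differed. With H3K4me3 in at least 1 list counted, 6 of 9 CpG-poor S100a starts were marked (66.7%). The counts were 0 of 16 for Sprr, 0 of 18 for Lce, 1 of 7 for fused-type and 2 of 3 for single genes. Of all CpG-poor genes 19.2% were marked by the same count. The Sprr and Lce genes thus lay below CpG-poor genes in general and the S100a genes above them.

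**Figure D2:**
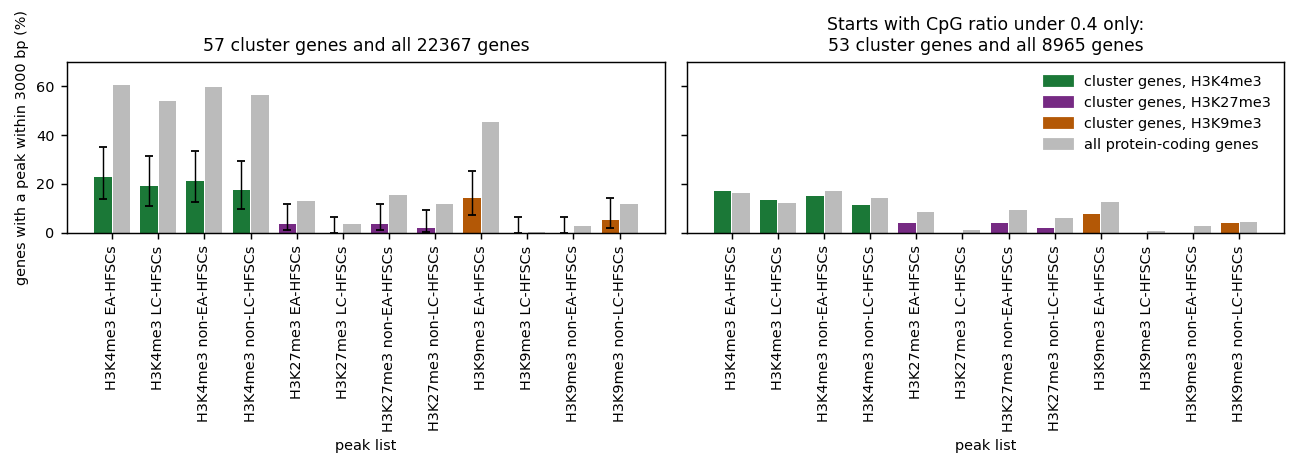
Percent of genes with a peak within 3000 bp of the start in each of the 12 lists, for the complex (coloured bars) and for all protein-coding genes (grey bars); error bars in the left panel are 95% Wilson intervals. Over all starts (left) the H3K4me3 bars of the complex lie far under the grey bars, and over starts with an observed to expected CpG ratio under 0.4 (right) the 2 sets of H3K4me3 bars lie within a few percent of each other.

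**Figure D3:**
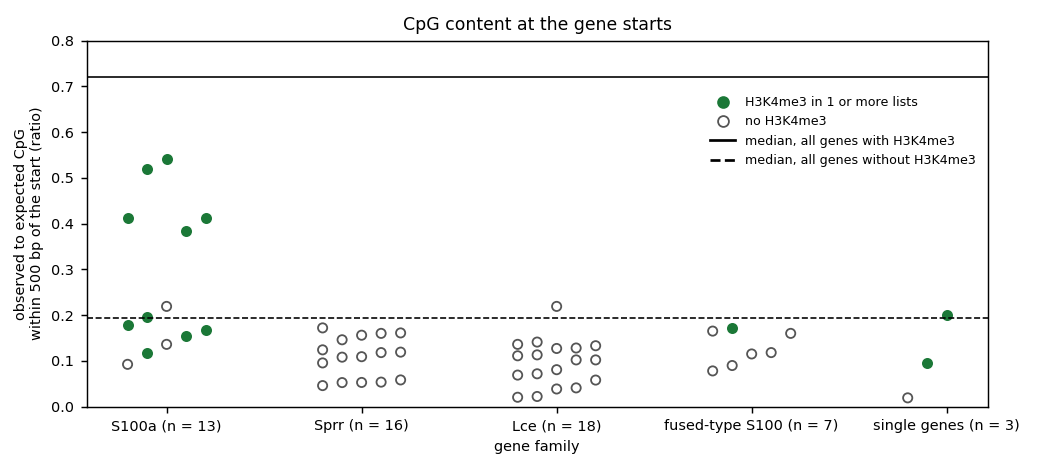
Ratio of observed to expected CpG within 500 bp of the gene start for each of the 57 genes, by family, with filled points for genes with H3K4me3 in 1 or more lists. The Sprr, Lce and fused-type genes all lie at or under 0.219, below or near the dashed line of all genes without H3K4me3, while the points near the top of the plotted range of the complex are S100a genes.

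Sequence is given for 6 members, some with H3K4me3 and some without. Shown are the 250 bases before the start on the strand of the gene, from the NCBIM37 (mm9) genome, with the letters TATAAA (the TATA box) and TGAGTCA (the AP-1 motif, on either strand) in capitals. S100a6 (chr3:90416566-90416815, plus strand) carried H3K4me3 in all 4 lists, S100a4 (chr3:90407442-90407691, plus) in 3 lists, in both HFSC lists under a wide peak, and Lor (chr3:91887065-91887314, minus) mainly downstream of its start. Sprr1a (chr3:92289817-92290066, minus), Ivl (chr3:92377638-92377887, minus) and Lce1b (chr3:92460849-92461098, minus) carried none.
S100a6: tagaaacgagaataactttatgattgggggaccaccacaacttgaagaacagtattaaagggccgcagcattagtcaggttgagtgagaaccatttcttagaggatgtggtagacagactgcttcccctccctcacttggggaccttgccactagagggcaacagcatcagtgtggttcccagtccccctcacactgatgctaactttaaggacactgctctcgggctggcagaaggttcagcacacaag
S100a4: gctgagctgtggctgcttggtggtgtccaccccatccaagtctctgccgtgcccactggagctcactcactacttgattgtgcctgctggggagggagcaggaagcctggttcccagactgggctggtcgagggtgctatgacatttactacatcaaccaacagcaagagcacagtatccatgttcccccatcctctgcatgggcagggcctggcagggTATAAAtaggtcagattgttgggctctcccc
Lor: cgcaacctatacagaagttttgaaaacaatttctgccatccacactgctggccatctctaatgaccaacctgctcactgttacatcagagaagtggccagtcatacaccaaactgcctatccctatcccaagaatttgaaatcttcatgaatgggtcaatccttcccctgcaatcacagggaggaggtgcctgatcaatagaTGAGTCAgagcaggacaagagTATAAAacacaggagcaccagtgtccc
Sprr1a: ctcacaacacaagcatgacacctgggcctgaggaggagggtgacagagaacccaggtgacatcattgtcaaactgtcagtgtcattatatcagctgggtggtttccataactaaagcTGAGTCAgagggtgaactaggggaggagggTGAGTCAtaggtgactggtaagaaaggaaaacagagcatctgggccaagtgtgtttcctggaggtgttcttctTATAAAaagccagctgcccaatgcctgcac
Ivl: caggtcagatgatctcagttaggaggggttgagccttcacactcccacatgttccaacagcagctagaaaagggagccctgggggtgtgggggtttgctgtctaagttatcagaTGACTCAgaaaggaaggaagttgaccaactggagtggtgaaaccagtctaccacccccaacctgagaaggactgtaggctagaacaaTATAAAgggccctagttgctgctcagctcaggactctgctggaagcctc
Lce1b: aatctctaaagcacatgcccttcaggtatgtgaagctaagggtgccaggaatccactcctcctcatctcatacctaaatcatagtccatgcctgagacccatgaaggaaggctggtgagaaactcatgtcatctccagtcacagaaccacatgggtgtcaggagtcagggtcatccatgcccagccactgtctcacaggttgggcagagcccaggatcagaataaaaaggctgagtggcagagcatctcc
TATAAA on either strand stood in these 250 bases at 25 of the 57 members (43.9%), where 12.3% of all protein-coding genes held it. Wholly within 21 to 45 bases before the start on the sense strand, a window chosen after the sequences had been seen, it stood at 12 of the 16 Sprr genes, 2 of the 18 Lce genes, 3 of the 7 fused-type genes and 2.38% of all genes. Of these 12 Sprr genes, 10 are Sprr2 genes with TATAAA 29 bases before the start, and as related copies of 1 gene family they are not separate observations. TGAGTCA stood at 10 of the 16 Sprr genes, at Lor and Ivl, at S100a11 and at none of the 18 Lce genes, and at 3.85% of all genes. Sprr1a held it at 103 and at 133 bases before the start. TATAAA was found at 22 of the 44 members without H3K4me3 and at 3 of the 13 with it (S100a4, Lor and Crct1). Over all genes, TATAAA was at 1871 of 8495 without H3K4me3 and at 889 of 13872 with it, the same order. A match in these letters is a description of the sequence, not a site known to be bound.

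The S100a genes at the outer ends held most of the H3K4me3 of the complex. S100a6 (calcyclin) had a peak over its start with scores of 3100 in EA-HFSCs, 1193 in LC-HFSCs, 3100 in non-EA-HFSCs and 2133 in non-LC-HFSCs. S100a10, the partner of annexin A2, had 3181, 489.5, 3100 and 2416 in the same order. Its EA-HFSC peak at chr3:93357250-93364258 was 7009 bp wide, the highest-scoring and widest H3K4me3 peak of that population in the complex. S100a11, which is crosslinked into the envelope, had 1614, 432, 3100 and 2700.1, and S100a14 had 2025, 71.9, 3100 and 2576. S100a1 and S100a13 are transcribed away from each other from neighbouring starts and shared a single peak in each list, with scores of 2478, 230.4, 1413 and 1506. These peaks covered the gene start in all 4 populations.

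S100a16 carried a broad H3K4me3 peak in 3 populations and none in LC-HFSCs. The scores were 1660.1 in EA-HFSCs, 2787 in non-EA-HFSCs and 1707 in non-LC-HFSCs, and the EA-HFSC peak at chr3:90340271-90346120 was 5850 bp wide. Crct1, a small cysteine-rich protein gene among the Lce genes, had the same pattern at low scores of 233, 214 and 127. H3K4me3 in these 3 lists and not in LC-HFSCs was found at 2.83% of all genes, and 2 of 57 members is near that share. Of the 13 members with H3K4me3 in EA-HFSCs, the 11 others kept it in LC-HFSCs, where 89.0% of all marked genes did. In the non-HFSCs, 10 of 12 kept it from early anagen to late catagen, beside 94.3% of all marked genes, and the ones without it in late catagen were S100a3 and S100a4.

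Ranks within each H3K4me3 list, given as the rank of a gene's highest-scoring peak in percent of all peaks of the list, place the members beside other genes. Over the 12028 genes with H3K4me3 in both EA-HFSCs and LC-HFSCs, the EA-HFSC list gave a median rank of 25.7% and the LC-HFSC list one of 38.6%, and the difference (LC-HFSCs minus EA-HFSCs) had a median of 11.8 points, with 90% of genes between -17.4 and 48.5. Most members lay within that range. Tchh stood at 0.461% in EA-HFSCs and 0.557% in LC-HFSCs, S100a6 at 0.461% and 0.618%, and S100a11 at 18.9% and 18.4%. The EA-HFSC values of Tchh and S100a6 are the best rank of 590 peaks tied at the score 3100. Their nearness to the LC-HFSC values thus depends in part on how ties were ranked. S100a10 stood at 0.168% and 13.9%, Lor at 30.1% and 58.4%, and S100a1 and S100a13 at 6.59% and 49.1%. S100a14, at 11.5% and 89.2%, lay above the range, and the peak over S100a4, at 52.4% and 3.76%, lay below it. These ranks have no replicate and come from lists of 21482 and 14718 peaks. The part of read depth or background in them was not tested.

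The peak over S100a4 reached towards S100a3 and S100a5 in the stem cells. S100a4 is a calcium-binding protein known from motile and mesenchymal cells, S100a3 is known as a protein of the hair cuticle, and S100a5 lies next to them. In EA-HFSCs 1 peak of 5390 bp at chr3:90405457-90410846 had a score of 535 (rank 11258 of 21482), and in LC-HFSCs 1 peak of 5334 bp at chr3:90405481-90410814 had a score of 751 (rank 553 of 14718). It covered the start of S100a4, began 1320 bp downstream of the start of S100a3 in EA-HFSCs and ended 1599 bp upstream of the start of S100a5. The edges were nearly the same in EA-HFSCs and LC-HFSCs. In non-EA-HFSCs the same stretch held a peak of 1356 bp over the start of S100a3 (score 186) and a peak of 889 bp over the start of S100a4 (score 53.0, rank 23796 of 24498). In non-LC-HFSCs there was none.

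By the 3000 bp window, S100a3, S100a4 and S100a5 thus had H3K4me3 in both HFSC lists and not in non-LC-HFSCs, a pattern of 0.787% of all genes. S100a5 had it in neither non-HFSC list, as 0.210% of all genes did. With any annotated transcript start counted, S100a5 was marked in both non-HFSC lists too, because the window of its second start reaches the S100a6 peak, and the pattern was left at 2 genes, S100a3 and S100a4. The 3 genes share 1 peak and are 1 observation, and with a window of 1000 bp only S100a4 showed the pattern. Of the 13 members marked in EA-HFSCs, 12 were also marked in non-EA-HFSCs (96.4% of all marked genes). Of the 11 marked in LC-HFSCs, 8 were also marked in non-LC-HFSCs, where 98.5% of all marked genes were, and the other 3 are these genes. Of the fibroblast markers, Dcn was listed with H3K4me3 in EA-HFSCs only, and Col1a1 and Pdgfra in all 4 lists. The part of fibroblasts or other S100a4-expressing cells was not tested.

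**Figure D4:**
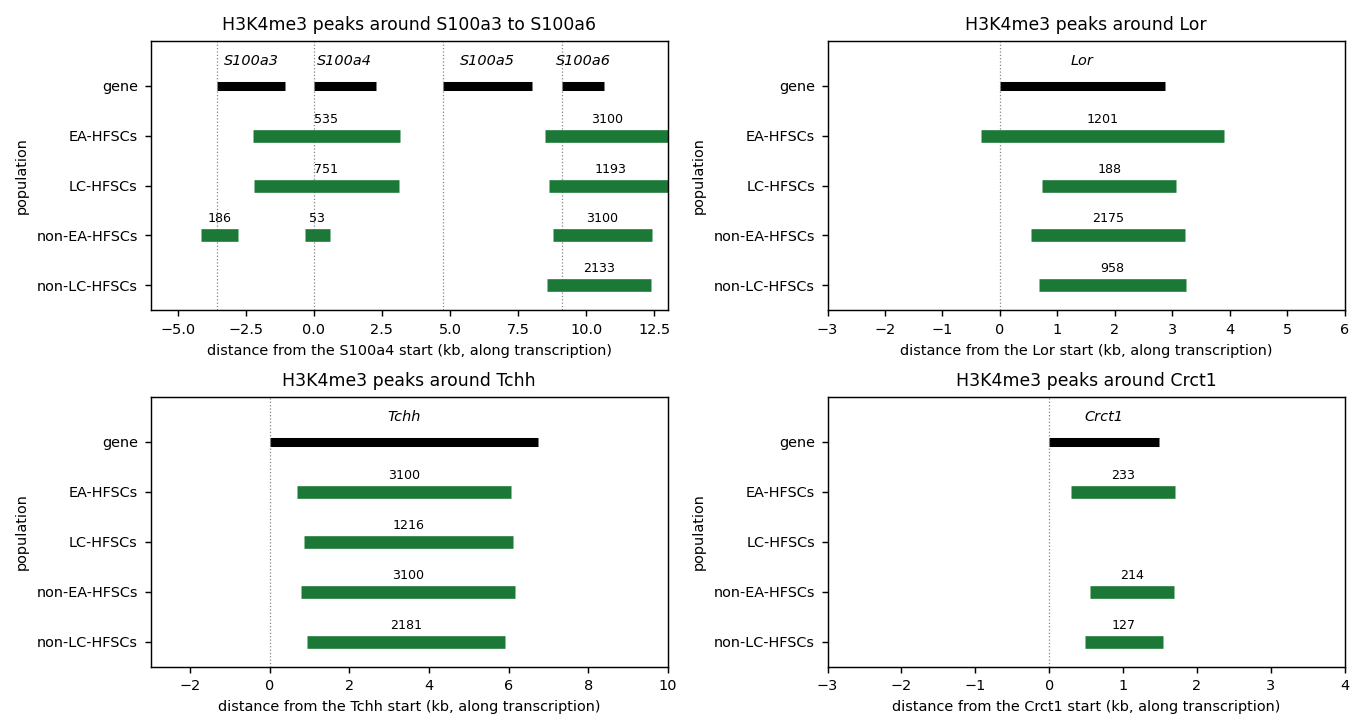
H3K4me3 peaks (green bars, with their scores) around S100a3 to S100a6, Lor, Tchh and Crct1 in the 4 populations, in kb from the named gene start along transcription, with gene bodies in black and starts as dotted lines. A single wide peak spans S100a4 in both HFSC rows (scores 535 and 751), the non-EA-HFSC row has 2 short ones and the non-LC-HFSC row none, while the peaks at Tchh and Crct1, and at Lor outside EA-HFSCs, begin downstream of the start.

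At Tchh and Crct1, and at Lor outside EA-HFSCs, the H3K4me3 peaks lay downstream of the start without covering it. Trichohyalin (Tchh) is a structural protein of the inner root sheath and medulla of the hair follicle. Its peak had scores of 3100 in EA-HFSCs, 1216 in LC-HFSCs, 3100 in non-EA-HFSCs and 2181 in non-LC-HFSCs, and 1216 was the highest H3K4me3 score of LC-HFSCs in the complex. The peak began between 671 and 927 bp downstream of the start in the 4 lists, and 86.4 to 93.6% of its length was coding exon. Its ratio of observed to expected CpG was 0.832 to 0.842, whereas the sequence within 500 bp of the Tchh start had 0.172 and a GC content of 34.2%.

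Loricrin is the most abundant protein of the envelope. The Lor peaks had H3K4me3 scores of 1201, 188, 2175 and 958, began 725 bp downstream of the start in LC-HFSCs, 541 bp in non-EA-HFSCs and 671 bp in non-LC-HFSCs, and covered the start in EA-HFSCs only (from 338 bp upstream to 3900 bp downstream). Of their length, 34.4% in EA-HFSCs and 54.2 to 62.1% in the other lists was coding. At Crct1 the peaks began 297 to 553 bp downstream, and 21.8 to 29.1% of their length was coding. The CpG ratio within the Lor peaks was 0.572 to 0.753, against 0.0951 around the start. The Tchh and Lor peaks therefore lay on sequence richer in CpG than the starts of these genes.

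Peaks of the repressive marks at the starts were sparse. For H3K27me3 their median score was 49.4 in EA-HFSCs, 75.0 in non-EA-HFSCs and 50.2 in non-LC-HFSCs. That was below the medians of the whole lists, 68.8, 79.6 and 70.7. For H3K9me3 it was 69.1 in EA-HFSCs and 54.6 in non-LC-HFSCs, above the list medians of 54.5 and 49.6. H3K27me3 was found at 2 members in EA-HFSCs (3.51%, 0.968 to 11.9%, beside 13.0% of all genes), Lce3a (score 54.4) and Lor (44.5). It was found at 0 in LC-HFSCs (beside 3.39%), at 2 in non-EA-HFSCs (beside 15.6%) and at 1 in non-LC-HFSCs (1.75%, 0.310 to 9.29%, beside 11.9%). The non-EA-HFSC genes were Lce3c (145) and Lce3f (75.0), and the non-LC-HFSC gene was S100a9 (50.2), the calgranulin B gene. No member had H3K27me3 in more than 1 list. At CpG-poor starts, the share of all genes with H3K27me3 was 8.48% in EA-HFSCs, 9.47% in non-EA-HFSCs and 5.96% in non-LC-HFSCs, and that of the members was 3.77%, 3.77% and 1.89%.

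H3K27me3 peaks in the inner cluster lay around Lce3c in non-EA-HFSCs and mostly elsewhere in EA-HFSCs. In non-EA-HFSCs, 4 peaks followed each other from 92743419 to 92758159 on chromosome 3 around Lce3c, with scores of 44.6, 145, 75.4 and 62.7, and the second, 4227 bp wide, was the highest-scoring and widest of that list in the complex. In EA-HFSCs, which had 11 peaks from Lor to Tchhl1, a peak of 1032 bp lay 890 bp downstream of the Lce3a start and one of 1528 bp lay between genes nearest to Lce3b (score 62.0). The EA-HFSC list held a group of 4 peaks between Lelp1 and Sprr2a1, from 91962705 to 92001255, with scores of 52.6 to 96.0, the last being its highest in the complex. One EA-HFSC peak, at chr3:92868335-92869372, overlapped a non-EA-HFSC peak, LC-HFSCs had no H3K27me3 peak in the complex and non-LC-HFSCs had 1 from Lor to Tchhl1. The window of Lce3f is less reliable than the others, since its share of 70-base words that occur once in the genome is the lowest outside Sprr2a1, Sprr2a2 and Sprr2a3.

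H3K9me3 was found at 8 members in EA-HFSCs (14.0%, 7.29 to 25.3%), beside 45.2% of all genes. They were Lor, S100a1, S100a6, S100a10, S100a11, S100a13, S100a16 and Sprr4. It was found at 0 members in LC-HFSCs (0.295% of all genes), at 0 in non-EA-HFSCs (2.80%) and at 3 in non-LC-HFSCs (5.26%, 1.81 to 14.4%, beside 11.6%), Lce1b, S100a10 and S100a16. At CpG-poor starts, the share of all genes with H3K9me3 was 12.7% in EA-HFSCs and 4.23% in non-LC-HFSCs, and that of the members was 7.55% and 3.77%. In LC-HFSCs and non-EA-HFSCs it was 0.524% and 2.90% of these genes and 0% of these members. All but Sprr4 of the 8 EA-HFSC genes also had H3K4me3 in EA-HFSCs. Both marks stood at 7 of the 13 members with H3K4me3 in EA-HFSCs (53.8%), and at 67.5% of all genes with it. In non-LC-HFSCs it was 2 of 10 (20.0%) beside 16.4%, so that in neither population were the marked members set apart from other marked genes.

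The H3K9me3 peaks at the EA-HFSC starts were short and, except at Sprr4, lay within the H3K4me3 peaks. Their scores were 112 at Lor, 94.4 at S100a16, 85.0 at S100a11, 69.1 at S100a10, 64.2 at S100a6, 53.0 at the shared start of S100a1 and S100a13, and 40.4 at Sprr4, 1563 bp upstream of the start (rank 41093 of 42277). Lor was the only member with all 3 marks in 1 population, and there all 3 peaks overlapped its coding exon. The highest-scoring and widest H3K9me3 peak of EA-HFSCs in the complex was also over coding sequence, at chr3:93249704-93252206 in the exon of Tchh (2503 bp, score 208, rank 1273 of 42277), beyond the 3000 bp window of its start. At S100a10 and S100a16 the non-LC-HFSC peaks (54.8 and 53.3) overlapped the place of the EA-HFSC peaks, and at Lce1b the peak of 600 bp (54.6) began 76 bp downstream of the start.

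Over the whole span, H3K4me3 peaks covered about as much of the complex as of chromosome 3, but unevenly. They covered 1.70% of the span in EA-HFSCs, 1.26% in LC-HFSCs, 1.68% in non-EA-HFSCs and 1.30% in non-LC-HFSCs, and, in this order, 1.74%, 1.17%, 1.52% and 1.16% of the chromosome. Between S100a1 and S100a9, a stretch of 0.185 Mb with 11 members, coverage was 13.6%, 10.3%, 11.3% and 9.07%. At S100a11 and S100a10 it was 28.1%, 22.2%, 28.6% and 25.4%. From Lor to Tchhl1, 1.39 Mb with the other 44 members, it was 0.792%, 0.530%, 0.953% and 0.666%. The interior with the envelope genes thus lay below the chromosome in each population, and both S100a ends lay above it.

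**Figure D5:**
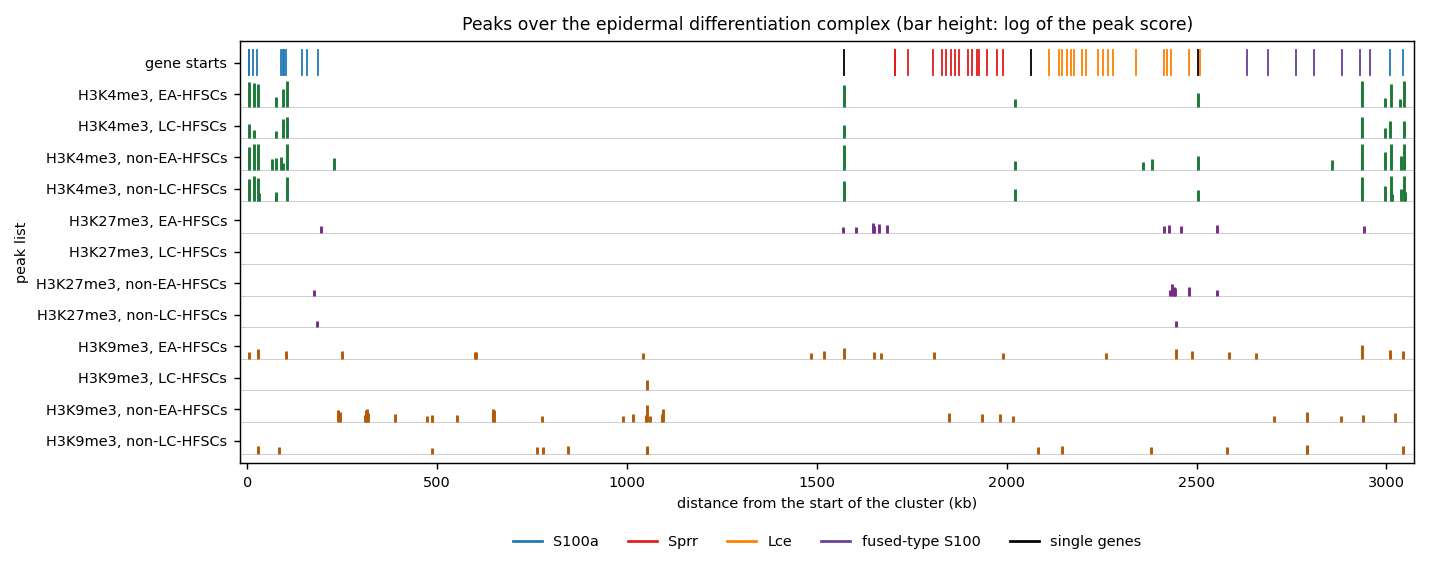
Peaks of the 12 lists along the complex, in kb from its first gene, as bars whose height follows the log of the score, with gene starts coloured by family on top. H3K4me3 bars stand at both S100a ends, at Lor, Crct1 and Tchh and at few sites between, and non-EA-HFSC H3K9me3 bars gather in the stretch between the first S100a block and Lor, which holds no gene start of the complex.

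H3K27me3 covered 0.479%, 0%, 0.533% and 0.0473% of the span in the same order, below the 1.68%, 0.183%, 1.67% and 0.886% of chromosome 3. H3K9me3 covered 0.666%, 0.0886%, 1.26% and 0.320% of it, and 1.29%, 0.0374%, 0.810% and 0.353% of the chromosome. The non-EA-HFSC value was above the chromosome through the stretch of 1.38 Mb between S100a9 and Lor that holds no member, where 21 of the 30 peaks lay and 2.09% was covered. None of those 30 peaks was within 3000 bp of a member start. The single LC-HFSC H3K9me3 peak of the complex, at chr3:91366406-91369109 (score 101, rank 192 of 1414), lay in this stretch and overlapped the highest-scoring non-EA-HFSC peak, at chr3:91365787-91369692 (score 445, 3906 bp), and 3 non-LC-HFSC peaks of 42.6 to 52.5.

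A few H3K4me3 peaks lay between genes and away from any start. One site between Sprr4 and Ivl, 32275 bp from the start of Sprr4, had a peak in EA-HFSCs (score 59.4), non-EA-HFSCs (86.3) and non-LC-HFSCs (168) and none in LC-HFSCs, and 813 bp were shared by the 3 peaks. It is the only H3K4me3 site of any list from the first Sprr gene to the first Lce gene along the chromosome, and its middle 300 bases at chr3:92336541-92336840 (mm9, plus strand) held neither motif.
Site between Sprr4 and Ivl: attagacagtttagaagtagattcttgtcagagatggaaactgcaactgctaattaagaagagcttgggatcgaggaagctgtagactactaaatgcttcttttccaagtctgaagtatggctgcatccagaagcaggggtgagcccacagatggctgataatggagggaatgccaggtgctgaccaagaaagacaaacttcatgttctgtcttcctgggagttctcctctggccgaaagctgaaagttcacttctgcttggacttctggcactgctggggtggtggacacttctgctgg
A site 13620 bp from the nearest start, at chr3:90389232-90391802 before S100a3, and one at chr3:93309647-93311247 before S100a11 had H3K4me3 in all 4 lists, with EA-HFSC scores under 100. Of the 20 non-EA-HFSC peaks in the complex 6 were in no other list, among them one over the start of S100a3, and no peak of the other 3 lists was alone. Peaks in 1 list only were 11 of 12 for H3K27me3 in EA-HFSCs, 6 of 7 in non-EA-HFSCs and 2 of 2 in non-LC-HFSCs. For H3K9me3 they were 20 of 22 in EA-HFSCs, 27 of 30 in non-EA-HFSCs, 9 of 16 in non-LC-HFSCs and 0 of 1 in LC-HFSCs.

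Repeated sequence touches few of these results. Within the windows, the share of 70-base words that occur once in the genome had a median of 99.2% over the members and of 98.8% over the 38 with no peak, and 99.6% over 1000 other genes of chromosome 3. It was at least 90% at 52 of 57 members. Sprr2a1, Sprr2a2 and Sprr2a3 had 4.98%, 4.98% and 4.65%, so that the lack of peaks at their starts says little. The annotated starts of Sprr2a1 (chr3:92019757) and Sprr2a2 (chr3:92019842) have nearly the same window and are not separate observations. Words of 70 bases were used because the authors trimmed the reads to that length.

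Other genes of epidermal differentiation, outside the complex, had H3K4me3 at larger shares, with no test made. The 31 genes listed were keratins of the basal and suprabasal layers, transglutaminases, desmosomal and envelope proteins, proteases and lipid enzymes of the barrier, and transcription factors such as Klf4, Grhl3 and Trp63. Among the 31, 23 had H3K4me3 in EA-HFSCs, 21 in LC-HFSCs, 25 in non-EA-HFSCs and 22 in non-LC-HFSCs (74.2%, 67.7%, 80.6% and 71.0%), above the share of all genes in each list. Trp63 had no peak of any mark in any list. Only the outermost annotated start of each gene was used, so a peak at another start would be missed. The median CpG ratio at their starts was 0.346, and of the 20 with a ratio under 0.4, 13, 11, 15 and 12 had H3K4me3 in the same order. Krt1 (keratin of the suprabasal layers, scores 1642 and 617), Tgm3 (a transglutaminase that crosslinks envelope proteins, 954 and 207) and Casp14 (which processes filaggrin, 529.5 and 141) had it in both non-HFSC lists and in neither HFSC list. No member of the complex showed that pattern, which 0.443% of all genes had, so that a count of 0 in 57 is near this share. Others of the 31 went the other way. Tgm1 had H3K4me3 in both HFSC lists (149.8 and 99.1) and in neither non-HFSC list. Tgm5 (1044, 373 and 220.1) and Dmkn (313, 71.5 and 124) had it in both HFSC lists and non-EA-HFSCs but not in non-LC-HFSCs. Krt10, the partner of Krt1, had it in all 4 lists (1094, 214, 2614 and 985). H3K27me3 was found at 1, 0, 2 and 1 of the 31 and H3K9me3 at 9, 0, 0 and 0.

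The keratin genes lay near the complex in H3K4me3 and the keratin-associated protein genes below it, with no test made. Of 51 keratin genes 11, 8, 12 and 10 had it (21.6%, 15.7%, 23.5% and 19.6%), and of 46 keratin-associated protein genes 2, 1, 1 and 2 (4.35%, 2.17%, 2.17% and 4.35%). For H3K27me3 the keratin genes had 4, 1, 10 and 8, and the keratin-associated protein genes 1, 0, 10 and 5, where the complex had 2, 0, 2 and 1. Of the 13 other protein-coding genes inside the complex, 1 had H3K4me3, 2310050C09Rik in non-EA-HFSCs.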

How the data were processed

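ChIP-seq of H3K4me3, H3K27me3 and H3K9me3 in 4 sorted populations was used through 12 peak lists. The authors trimmed single-end reads (Trimmomatic 0.22) to 70 bases, aligned them to mm9 with Bowtie2, pooled independent experiments and called peaks with MACS 1.4 against IgG of the same population, at p-values of 1e-05 for H3K4me3 and 0.0001 for the other marks. The deposited score of each peak is 10 times the negative log10 of its p-value, and the lowest was 50.0 in the H3K4me3 lists and 40.0 in the others. Read depth is not in the lists, so its effect on presence or absence of a peak could not be corrected here. The 4 IgG samples have no list here.

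Genes and sequence were taken from NCBIM37 (the mm9 assembly) with GENCODE vM1. The 57 members had 61 gene models, since Flg had 5, of which the first was used. Peak presence, coverage and base composition were computed with Python 3.11.15 and numpy 2.4.6, 95% Wilson intervals with scipy 1.17.1, and the presence step was tested on simulated data. Positions are 1-based.

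The members and lists were chosen with earlier results of these data known. All members could be named; those named in full have 2 or more marks, a peak in 1 list of a mark only, or the highest-scoring or widest peak of a list. The split at a CpG ratio of 0.4 was chosen with the members' data known. Alternatives were scores of at least 50 or 100, a 1000 bp window, any transcript start, equal numbers of top-scoring peaks, 50% of the peak inside the window, windows or bases of unique 70-base words, other cluster limits and, added after seeing the data, the whole gene with 3000 bp to either side.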

Additional observations from a re-analysis of the deposited data

Results flagged for a closer look

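The number of members with H3K9me3 at the start changed in opposite directions from early anagen to late catagen in the stem cells and in the other cells. From EA-HFSCs to LC-HFSCs it changed by -8, from 8 members to 0. From non-EA-HFSCs to non-LC-HFSCs it changed by 3, from 0 to Lce1b, S100a10 and S100a16. Over all genes the share with H3K9me3 went the same ways, from 45.2% to 0.295% and from 2.80% to 11.6%, so the pattern is not one of the members alone. With 1 list per population the difference was not tested. All 3 non-LC-HFSC peaks had scores between 53.3 and 54.8, and of the 8 EA-HFSC members only Lor had a peak with a score over 100.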

How the results depend on the processing

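Of 30 counts and coverages, each recomputed under the alternatives that apply to it, 163 values stayed within 1.5 times the value in the report and 41 did not. H3K4me3 counts per list were in no case among the latter, nor was any value under any transcript start or under unique words only. With a score of at least 50, H3K27me3 was at 1 member in EA-HFSCs. With a score of at least 100, H3K27me3 was at 0 members in EA-HFSCs, 1 in non-EA-HFSCs and 0 in non-LC-HFSCs, and H3K9me3 at 1 in EA-HFSCs and 0 in non-LC-HFSCs. With equal numbers of top-scoring peaks (14718, 1909 and 1414 for H3K4me3, H3K27me3 and H3K9me3) these 5 counts were 0, 0, 0, 0 and 0, and members with H3K4me3 in 3 lists but not LC-HFSCs fell to 1. With a 1000 bp window H3K27me3 was at 1 member in EA-HFSCs and 0 in non-LC-HFSCs, and the S100a3 to S100a5 pattern was left at 1 gene, as with 50% of the peak inside the window (1). In windows with 90% unique words H3K27me3 in non-EA-HFSCs was at 1 member. Over the whole gene, an alternative chosen after seeing the data, H3K9me3 in non-EA-HFSCs was at 2 members.

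Coverage from Lor to Tchhl1, without the outer S100a genes, was 0.792%, 0.530%, 0.953% and 0.666% for H3K4me3 in the order of the report, 0.973% for H3K27me3 in EA-HFSCs and 1.07% in non-EA-HFSCs, and 0% for H3K9me3 in LC-HFSCs and 0.604% in non-EA-HFSCs. Over the whole complex, coverage with a score of at least 50 was 0.309% for H3K27me3 in EA-HFSCs, 0.0186% in non-LC-HFSCs and 0.175% for H3K9me3 in non-LC-HFSCs. With a score of at least 100 H3K27me3 covered 0%, 0.138% and 0% (EA-, non-EA- and non-LC-HFSCs) and H3K9me3 0.139%, 0.523% and 0%, and with equal numbers of peaks 0%, 0% and 0%, and 0.0820%, 0.128% and 0%. Over any transcript start the S100a3 to S100a5 pattern held 2 genes, without S100a5. The read depth of each library is not in the lists, which limits what the absence of a low-scoring peak can show. No paired analysis was possible because each population and mark has 1 list and the labels give no replicate numbers.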
